A study of Mus musculus with 13 samples.

Results

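Cadherins and protocadherins are calcium-dependent cell surface proteins, and their transcripts were followed here across 5 cell populations sorted from the neonatal mouse cochlea. The set holds every gene of the array whose symbol in the scanner table is Cdh with a number or begins with Pcdh. It comprised 74 genes, of which 20 had a detection p under 0.01 on at least 2 of the 13 arrays. Over the whole array 10088 of 18038 genes did. These 20 of the 10088 genes tested are described below, and 3 further genes with such symbols are not analysed here. Pcdh1 and Cdh26 have other symbols in the scanner table and fall outside the set.

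All mice were C57BL6 animals aged 3 days carrying Math1-nGFP, a reporter in which an enhancer of the hair cell gene Math1 drives nuclear GFP. Every population therefore came from reporter cochleae. HC are the GFP-positive cells, labelled as hair cells (4 arrays). The remaining populations lacked GFP. GER are cells of the greater epithelial ridge, sorted for low CD271, high CD146 and CD326 (3 arrays). DC are the cells labelled as Deiters' and Claudius cells, supporting cells of the organ of Corti and its lateral border, sorted for low CD271, low CD146 and CD326 (2 arrays). CD271high are cells with high CD271 that the labels name suspected macrophages (3 arrays), and BM are cells from beneath the basilar membrane, sorted for low CD271 without CD326 (1 array). RNA was hybridised to Illumina BeadChip arrays. The labels do not say whether replicates were separate animals, so the p-values cover only the variation among these samples, and that variation may be technical.

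Classical cadherins bind the same cadherin on the next cell and are tied to actin through catenins, and they hold epithelial cells together and sort cells with different cadherins from each other. Protocadherins lack the catenin-binding tail. The clustered alpha, beta and gamma protocadherins lie in tandem on 1 chromosome and give neurons combinatorial surface identities, and the delta protocadherins act in cell sorting and axon growth, in part by recruiting the actin-regulating WAVE complex. In the organ of Corti, adhesion between hair cells and supporting cells shapes their mosaic.

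The promoters of Pcdh10 and Pcdh17 are shown because both encode delta-2 protocadherins and both were lower in HC than in GER and DC, as described below. They come from RefSeq on the GRCm38.p6 build, run from 250 bases before the annotated start to 50 after it, and lie on the plus strand at chr3:45378148-45378447 and chr14:84443313-84443612. Of the 20 genes, 5 had a promoter in the RefSeq table used.
Pcdh10: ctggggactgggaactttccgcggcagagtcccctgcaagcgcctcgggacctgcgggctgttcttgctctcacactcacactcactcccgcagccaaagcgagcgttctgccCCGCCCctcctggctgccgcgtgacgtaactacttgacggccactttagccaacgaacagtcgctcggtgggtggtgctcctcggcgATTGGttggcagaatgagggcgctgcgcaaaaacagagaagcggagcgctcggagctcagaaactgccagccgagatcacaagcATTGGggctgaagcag
Pcdh17: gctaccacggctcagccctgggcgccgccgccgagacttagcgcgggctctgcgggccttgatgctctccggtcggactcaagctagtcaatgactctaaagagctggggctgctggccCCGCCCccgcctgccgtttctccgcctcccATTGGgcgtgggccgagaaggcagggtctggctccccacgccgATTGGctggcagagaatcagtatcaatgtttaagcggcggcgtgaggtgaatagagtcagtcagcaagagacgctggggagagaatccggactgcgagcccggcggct
Capitals mark the GC box GGGCGG and the CCAAT box CCAAT, each searched on both strands, so that they appear here as CCGCCC and ATTGG. The motifs do not overlap each other. Each promoter held 1 GC box and 2 CCAAT boxes, and 12.8% of the 32851 promoters of the table held both motifs at least once (35.7% the GC box, 37.4% the CCAAT box). Both promoters were rich in C and G, with 62.3% GC and 24 CG dinucleotides for Pcdh10 and 65.0% GC and 26 CG for Pcdh17, against medians of 52.7% and 7 over the table. Neither window held the letters TATAAA, which 13.6% of promoters hold, or the E-box CAGGTG, which 20.2% hold.

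Per array, 40.2% to 45.2% of the 25697 probes were detected. Of the hair cell markers 8 of 8 were higher in HC than in the GER and DC populations, with a summed linear level of 108021 to 110666 on the HC arrays and at most 3333 on the GER and DC arrays. HC also had a summed level of Deiters and pillar cell markers of 38646 to 47655, between GER (12399 to 17392) and DC (52148 to 57779), with 2 of 7 of these genes higher in HC. Macrophage markers summed to 12003 to 14823 in HC against 592 to 2574 in GER and DC (2 of 10 higher), and neuronal markers to 6856 to 9813 against at most 241 (2 of 3 higher). The macrophage list had a median log2 difference of 0.25, with 2 to 6 of the 10 genes detected on an HC array. Of the endothelial markers 4 of 7 were higher in HC. Over all genes 19.5% were higher in HC. The part of these markers in the HC results was not tested. Of 6 tested markers of the greater epithelial ridge, 0 were higher in GER than in DC and 1 was lower, where 4.16% of all genes passed in either direction. They summed to 118197 to 125462 in GER and 102359 to 105502 in DC. CD271high expressed 10 of 10 tested macrophage markers at a summed level of 91974 to 102836, but also epithelial markers (33973 to 42237) and markers of Schwann cells and satellite glia (41447 to 59767). Ngfr, the gene of CD271 itself, was lower in CD271high than in the mean of the other 3 tested populations (-1.97 ± 0.26 SE on the log2 scale, adjusted p = 6.6e-05), against the label, so CD271high is used here as the name of a gate. BM had the highest sums of mesenchymal (72219), glial (80288) and endothelial (42255) markers. The mesenchymal sum was also large in GER (45040 to 54129) and DC (41308 to 48514). Among the HC arrays, HC D was higher than the other 3 for glial markers (12941 against 1589 to 2495) and for pericyte markers (1768 against 243 to 285). The arrays lay on 2 beadchips. Both DC arrays and BM were on beadchip 1, 3 of 4 HC arrays were on beadchip 2, and GER and CD271high each had 2 arrays on beadchip 1 and 1 on beadchip 2. In sorted bulk RNA, fewer cells of a type and less RNA per cell cannot be told apart.

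Detection differed between subfamilies. All 3 type I classical cadherins of the set passed the detection filter (Cdh2, Cdh3 and Cdh4), against 3 of 10 type II cadherins (Cdh5, Cdh6 and Cdh11) and 0 of 3 atypical cadherins. Among the non-clustered protocadherins Pcdh7, Pcdh10, Pcdh17 and Pcdh20 passed. Of the 50 clustered protocadherins 10 passed: 8 of 22 beta genes, 1 of 8 alpha genes (Pcdha6) and 1 of 20 gamma genes (Pcdhga10). Another 49 genes were undetected on every array, among them Cdh19, a cadherin of Schwann cell precursors. The 5 genes just outside the filter, detected on 1 array each, were Cdh13, Pcdh21, Pcdhb10, Pcdhga2 and Pcdhgc4. Within the 20, Pcdh7, Pcdh17 and Pcdhb22 were detected on all 13 arrays and 5 genes on only 2 to 4: Cdh5, Cdh6, Cdh11, Pcdhb19 and Pcdhga10. Cdh6 and Pcdhb19 passed the filter only through populations in which they were high. Cdh5 passed only through HC D and BM, and Pcdhga10 only through DC A and CD271high A. Counts over the 20 genes are therefore descriptions. Chromosome 18, which holds Cdh2 and the clustered genes, carried 11 of the 20 and 51 of the 74 genes of the set.

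**Figure D1:**
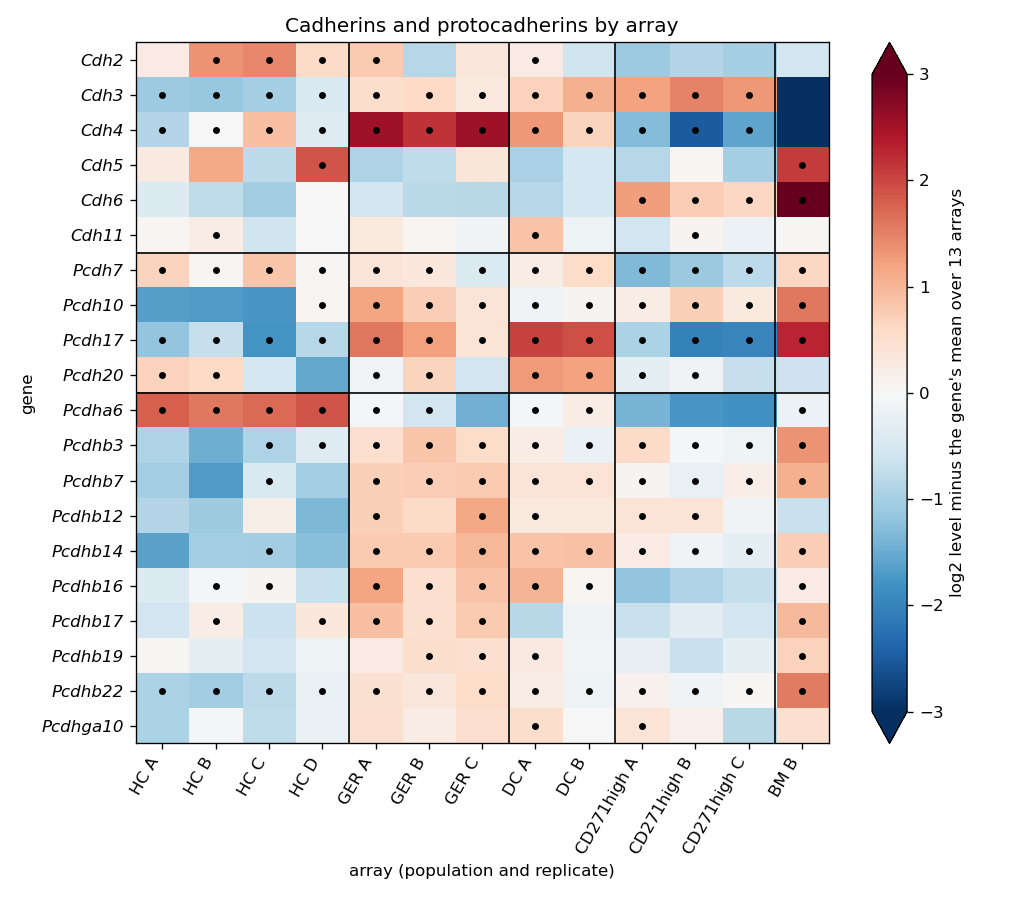
Log2 level of the 20 detected cadherin and protocadherin genes on each of the 13 arrays, minus that gene's mean over the arrays (red above, blue below, colours saturating at 3). Black dots mark arrays with a detection p under 0.01. Most beta protocadherins are below their means on the 4 HC arrays, where Pcdha6 is above, and Cdh3 and Cdh4 are far below on BM.

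HC were compared with the mean of GER and DC to ask which adhesion genes distinguish the GFP-positive cells from the epithelial cells around them. Most of the detected family was lower in HC. Of the 20 genes, 12 were lower, 2 were higher (Cdh2 and Pcdha6) and 6 did not pass (limma, two-sided, Benjamini-Hochberg adjusted p under 0.05 over all genes). The 12 include Pcdhb19 and Pcdhga10, which passed the detection filter only with the help of GER and DC arrays. Over all genes tested 26.5% were lower and 19.5% higher, 46% in either direction. The median log2 difference was -0.89 over the 20 genes and -0.09 over all genes. Every HC array lay below every GER and DC array for 8 of the 20 genes and above them for 1, against 20.3% and 16.4% of all genes. Within beadchip 1, which holds 1 HC array, 10 of the 20 passed (30.3% of all genes). Within beadchip 2, which holds 3 HC arrays and 1 GER array, 3 passed, near the share of all genes (14.1%): Pcdha6, Pcdhb14 and Cdh4.

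The 3 type I cadherins each had a different order of populations. Cdh3, which encodes P-cadherin, an epithelial cadherin, had log2 levels of 8.74, 8.70, 8.84 and 9.38 on the HC arrays, 10.36, 10.44 and 10.13 in GER, 10.53 and 10.89 in DC, 11.05, 11.32 and 11.12 in CD271high, and 6.34 in BM, where it was not well above background. Its levels formed steps from BM through HC, GER and DC to CD271high, and arrays of neighbouring populations did not overlap. Cdh3 was 3.02-fold lower in HC than in the mean of GER and DC (log2 difference -1.59 ± 0.16 SE, limma adjusted p = 8.4e-06), and differed by -1.81 within beadchip 1 and -1.16 (adjusted p = 0.098) within beadchip 2. GER and DC did not differ beyond their spread (-0.40 ± 0.22, adjusted p = 0.51), nor did DC and CD271high (-0.46 ± 0.22, adjusted p = 0.16), whereas GER was lower than CD271high (-0.86 ± 0.20, adjusted p = 0.0061). All 3 probes of Cdh3 that passed the filter gave the same direction for HC, with differences of -1.94, -1.53 and -1.59. Another probe, detected on 1 array, gave -0.69. The epithelial marker list moved with Cdh3: 6 of 6 keratin and claudin genes were lower in HC, where 26.5% of all genes were lower. Their summed level was 11931 to 14402 in HC against 32286 to 36871 in GER and DC. The part of these markers in the Cdh3 result was not tested.

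Cdh4, which encodes R-cadherin, known from retina and brain, was highest in GER. Its log2 levels were 8.60, 9.47, 10.38 and 9.09 in HC, 12.02, 11.64 and 12.03 in GER, 10.78 and 10.14 in DC, 8.17, 6.98 and 7.89 in CD271high, and 5.96 in BM, not well above background. GER lay above all other populations on every array, HC and DC overlapped, and CD271high lay below all 3. Cdh4 was 3.46-fold lower in HC than in the mean of GER and DC (-1.79 ± 0.34, adjusted p = 0.0011). The difference came to -2.51 ± 0.39 against GER alone (adjusted p = 0.00024) and -1.07 ± 0.44 against DC alone, which did not pass (adjusted p = 0.078). It was -2.54 within beadchip 1 and -2.38 (adjusted p = 0.049) within beadchip 2.

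Cdh2, which encodes N-cadherin, the classical cadherin of neural tissue, was the type I cadherin with the higher level in HC. Its log2 levels were 6.96, 8.08, 8.17 and 7.29 in HC, 7.51, 5.87 and 7.06 in GER, 6.97 and 6.12 in DC, 5.64, 5.85 and 5.73 in CD271high, and 6.17 in BM. It was detected on 3 of 4 HC arrays, 1 of 3 GER arrays and 1 of 2 DC arrays, on no CD271high array and not on BM, and HC overlapped with GER and DC. The difference was 0.95 ± 0.35, or 1.93-fold (adjusted p = 0.043). It passed under 9 of 23 alternatives, with adjusted p from 0.019 to 0.7. It was lost when HC B, HC C, GER B, DC B or any 1 CD271high array was left out (adjusted p from 0.055 to 0.16), and did not pass against GER alone (0.82, adjusted p = 0.12) and within beadchip 1 (0.34) and beadchip 2 (0.79, adjusted p = 0.28). With the beadchip as a block the difference was 0.72 (adjusted p = 0.18), and with the replicate letter as a block 1.002 (adjusted p = 0.066).

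**Figure D2:**
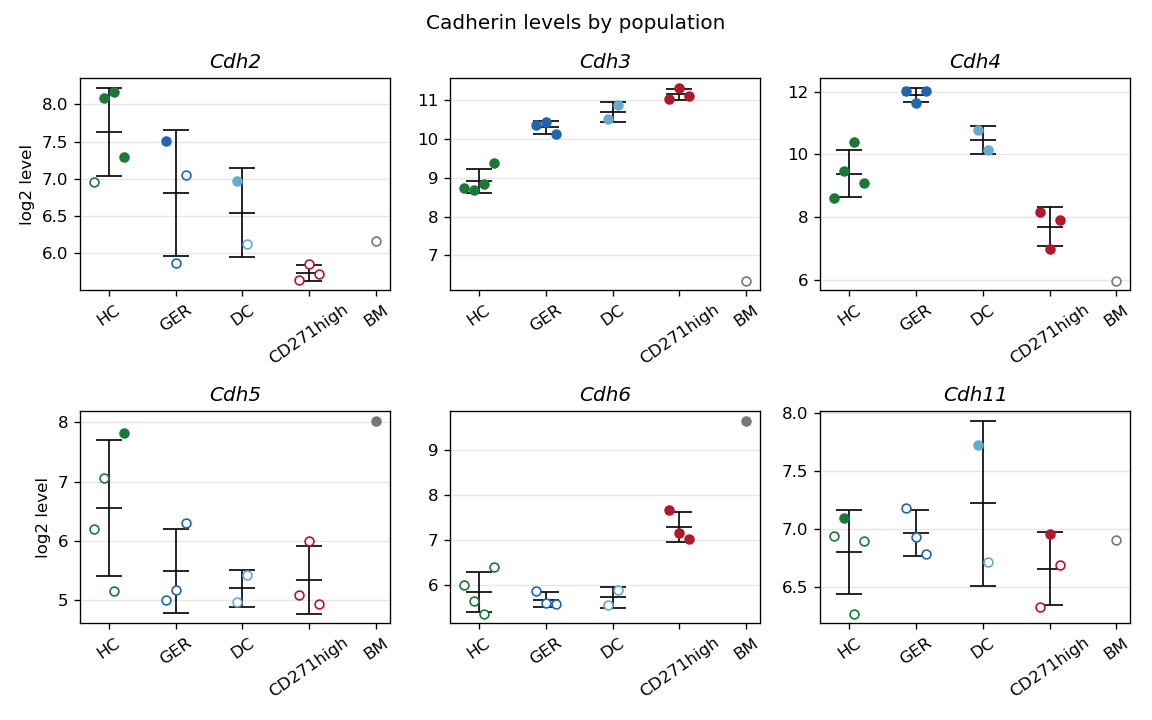
Log2 levels of the 6 detected classical cadherins by population. Each point is 1 array, filled where the detection p was under 0.01, and the bars give the mean ± SD of populations with 2 or more arrays. Cdh3 steps up from HC to CD271high, Cdh4 peaks in GER, and Cdh6 is detected only in CD271high and BM.

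The type II cadherins were dim and were detected on 2 to 4 arrays each. Where a gene was undetected on every array of 1 side, the fold is given as "at least": the undetected side was raised, array by array, to the lowest signal among detected probes. Cdh6, a cadherin of developing kidney and neural crest, had log2 levels of 7.68, 7.17 and 7.03 in CD271high and 9.64 in BM, and 5.37 to 6.40 on the 9 arrays of HC, GER and DC, all undetected. CD271high did not overlap with these 9 arrays and was at least 1.13-fold higher, a difference given without a p because Cdh6 passed the detection filter only through CD271high and BM. Cdh5, which encodes VE-cadherin of endothelial junctions, was detected on HC D at 7.82 and in BM at 8.02. It lay at 6.19, 7.06 and 5.15 on the other HC arrays, 5.00, 5.16 and 6.30 in GER, 4.97 and 5.41 in DC, and 5.08, 6.0 and 4.93 in CD271high. HC overlapped with GER and DC for Cdh5, and the comparison did not pass (1.22 ± 0.48, and 0.79 without HC D). A call was gained without HC C (1.69), without GER C (1.42) and on the authors' deposited values (0.54). No p is given, because Cdh5 passed the detection filter only through HC D and BM. Endothelial markers followed a like order, with summed levels of 6457 to 16809 in HC, highest on HC D, 3460 to 8309 in GER, 3608 to 3728 in DC and 42255 in BM, with 7 of 7 detected in BM. Their part in the Cdh5 levels was not tested. Cdh11, a cadherin of mesenchyme, was detected on HC B at 7.09, DC A at 7.72 and CD271high B at 6.95, lay between 6.27 and 7.18 on the other 10 arrays, and passed in no comparison. BM, where 8 of 8 mesenchymal markers were detected, had Cdh11 at 6.90, not well above background.

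Among the non-clustered protocadherins of the set, both detected delta-2 genes were lower in HC, while the delta-1 gene Pcdh7 and Pcdh20 did not pass. Pcdh17, a delta-2 protocadherin that recruits the WAVE complex in axons, had log2 levels of 8.86, 9.35, 8.25 and 9.20 in HC, 11.63, 11.29 and 10.45 in GER, 12.08 and 11.98 in DC, 9.10, 8.03 and 8.07 in CD271high, and 12.35 in BM. DC, GER and BM were high and HC and CD271high low, with no overlap between these sides. Pcdh17 was 6.32-fold lower in HC than in the mean of GER and DC (-2.66 ± 0.31, adjusted p = 2.2e-05), the largest difference among the 20 genes in this comparison. It was -2.88 within beadchip 1 and -1.52 (adjusted p = 0.12) within beadchip 2. DC and GER did not differ by the test (GER minus DC -0.90 ± 0.41, adjusted p = 0.36), nor HC and CD271high (0.52 ± 0.35, adjusted p = 0.23).

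Pcdh10, the other delta-2 gene detected, encodes a protocadherin that promotes axon growth and cell movement. Its log2 levels were 5.78, 5.73, 5.68 and 7.49 in HC, 8.62, 8.16 and 7.81 in GER, 7.32 and 7.51 in DC, 7.65, 8.14 and 7.74 in CD271high, and 9.01 in BM. In HC it was detected on HC D only, and that array overlapped with DC. Pcdh10 was 3.10-fold lower in HC (-1.63 ± 0.35, adjusted p = 0.0021), and without HC D the difference was -2.07. It was -2.12 within beadchip 1 and -1.51 (adjusted p = 0.28) within beadchip 2. All 3 probes of Pcdh10 passed the filter and gave -1.65, -1.63 and -1.44. HC D also had the highest glial and pericyte marker sums of the HC arrays, as given above, and their part in its Pcdh10 level was not tested.

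Pcdh7, a delta-1 protocadherin, was lower in CD271high than in each of the other tested populations. Its log2 levels were 9.68, 9.05, 9.84 and 9.04 in HC, 9.39, 9.34 and 8.58 in GER, 9.24 and 9.56 in DC, 7.70, 7.89 and 8.22 in CD271high, and 9.63 in BM. CD271high lay below every other array, and the other populations overlapped. HC differed from GER and DC by 0.15 ± 0.23 (adjusted p = 0.62). CD271high was lower than HC (HC minus CD271high 1.47 ± 0.26, adjusted p = 0.00047), than GER (1.16 ± 0.28, adjusted p = 0.0075) and than DC (1.46 ± 0.31, adjusted p = 0.0042). Pcdh1, a delta-1 gene outside the set, was also lower in CD271high than in the mean of HC, GER and DC (limma, -0.95 ± 0.19, adjusted p = 0.0015). It did not pass in HC against GER and DC (0.01 ± 0.19, adjusted p = 0.98). Pcdh20 was detected on 8 arrays and ranged from 5.86 to 8.67, with DC (8.67 and 8.61) above every other array. DC did not pass against HC (HC minus DC -1.44 ± 0.53, adjusted p = 0.053), GER (GER minus DC -1.24 ± 0.56, adjusted p = 0.36) or CD271high (1.62 ± 0.56, adjusted p = 0.055).

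**Figure D3:**
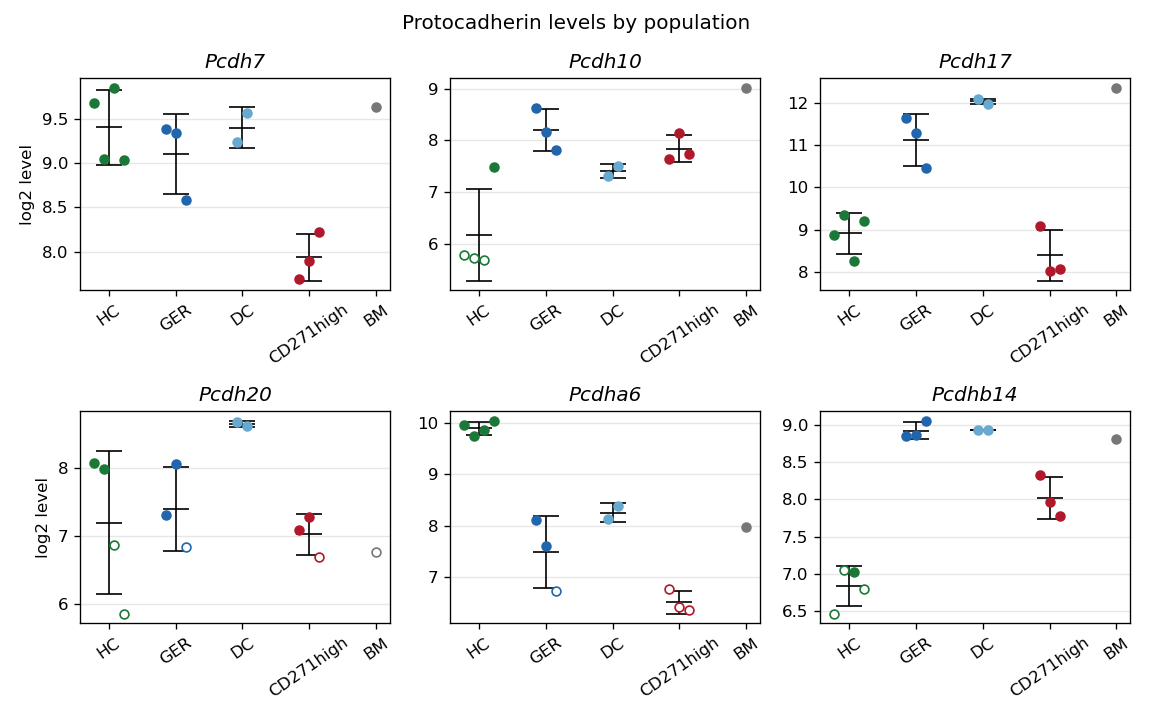
Log2 levels of the 4 detected non-clustered protocadherins and of Pcdha6 and Pcdhb14 by population. Each point is 1 array, filled where the detection p was under 0.01, and the bars give the mean ± SD of populations with 2 or more arrays. Pcdha6 is above all other arrays in HC, whereas Pcdh10, Pcdh17 and Pcdhb14 are low there.

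Most detected clustered protocadherins were lower in HC (8 of 10). Pcdha6, the only alpha gene detected, was higher, whereas 7 of the 8 detected beta genes were lower and 0 were higher. Over all genes 26.5% were lower and 19.5% higher. The lower genes include Pcdhb19 and Pcdhga10, which passed the detection filter only with the help of GER and DC arrays. Pcdha6 had log2 levels of 9.96, 9.74, 9.87 and 10.04 in HC, 8.11, 7.61 and 6.72 in GER, 8.12 and 8.39 in DC, 6.76, 6.41 and 6.35 in CD271high, and 7.98 in BM. All 4 HC arrays lay above the other 9, and CD271high was undetected throughout. Pcdha6 was 4.09-fold higher in HC than in the mean of GER and DC (2.03 ± 0.23, adjusted p = 2.1e-05), by 1.90 within beadchip 1 and 3.16 (adjusted p = 0.0028) within beadchip 2. It passed under 23 of 23 alternatives. Against CD271high, HC was at least 8.44-fold higher (adjusted p = 4.4e-07). A second Pcdha6 probe was undetected on every array. The alpha genes share their last exons, and probe sequences were not used here, so the transcript may be from another alpha gene.

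The beta genes encode protocadherins from single exons and have no shared constant exons. Of the 8 detected, Pcdhb14 differed most in HC, with log2 levels of 6.47, 7.05, 7.03 and 6.80 in HC, 8.85, 8.86 and 9.05 in GER, 8.93 and 8.93 in DC, 8.32, 7.96 and 7.77 in CD271high, and 8.81 in BM. HC was the lowest population with no overlap, and 1 of the 4 HC arrays was detected. Pcdhb14 was 4.25-fold lower in HC than in the mean of GER and DC (-2.09 ± 0.16, adjusted p = 5.2e-07), by -2.42 within beadchip 1 and -2.09 (adjusted p = 0.0093) within beadchip 2, and it passed under 23 of 23 alternatives.

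Pcdhb7 followed, with log2 levels of 7.05, 6.38, 7.62 and 7.04 in HC, 8.77, 8.80 and 8.86 in GER, 8.45 and 8.48 in DC, 8.15, 7.83 and 8.27 in CD271high, and 9.12 in BM. It was 3.07-fold lower in HC than in the mean of GER and DC (-1.62 ± 0.21, adjusted p = 5.2e-05), with HC again below every other array. Pcdhb3 had levels of 6.89, 6.34, 6.89 and 7.43 in HC, 8.32, 8.63 and 8.35 in GER, 8.04 and 7.60 in DC, 8.39, 7.77 and 7.69 in CD271high, and 9.16 in BM. It was 2.37-fold lower in HC (-1.24 ± 0.22, adjusted p = 0.00069), and no HC array overlapped with the other populations. Pcdhb22 was detected on all 13 arrays, at 8.35, 8.26, 8.51 and 9.08 in HC, 9.77, 9.66 and 9.86 in GER, 9.52 and 9.15 in DC, 9.44, 9.20 and 9.34 in CD271high, and 10.86 in BM. It was 1.99-fold lower in HC (-0.996 ± 0.171, adjusted p = 0.00049), HC D coming nearest to the other populations.

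Pcdhb12 was detected on no HC array (5.83, 5.63, 6.87 and 5.35) and on 3 of the 5 GER and DC arrays, at 7.42, 7.28 and 7.87 in GER and 6.98 and 6.99 in DC, beside 7.10, 7.11 and 6.58 in CD271high and 6.02 in BM. It was at least 1.10-fold lower in HC (adjusted p = 0.0018). Pcdhb16 had levels of 7.09, 7.45, 7.59 and 6.84 in HC, 8.69, 8.01 and 8.35 in GER, 8.53 and 7.56 in DC, 6.31, 6.57 and 6.79 in CD271high, and 7.74 in BM. HC lay between CD271high and GER and overlapped with DC, and was 1.94-fold lower than GER and DC (-0.95 ± 0.23, adjusted p = 0.0054). Pcdhb19 was at least 1.04-fold lower in HC. No p is given, because it passed the detection filter only with the help of GER and DC arrays. The call held under 15 of 23 alternatives. It was lost without HC B, HC C or DC A (-0.49, -0.39 and -0.42) and with the beadchip as a block (-0.48). It was also lost within either beadchip and on the authors' deposited values (-0.19). Pcdhb17 differed by -0.30 ± 0.23 from GER and DC together (adjusted p = 0.33) but was lower than GER alone (-0.89 ± 0.27, adjusted p = 0.017). Against GER alone all 8 beta genes were lower in HC, and against DC alone 5 of 8, where 24% and 20.3% of all genes were lower. Across the 13 arrays, which share the populations and their labelling, the levels of pairs of beta genes had a median Pearson's r of 0.58 (0.06 to 0.95 over 28 pairs), and Pcdha6 correlated with the 8 beta genes at -0.67 to 0.08.

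Pcdhga10, the only gamma gene detected, was seen on DC A and CD271high A. No HC array was detected. It was called lower in HC, but it passed the detection filter only with the help of DC A, so no p is given. With 1 of the 5 GER and DC arrays detected, no fold can be given. The call held under 14 of 22 alternatives and was lost without HC A, HC C, GER C or DC A. The beta genes are close paralogs and the gamma genes share constant exons, so the assignment of a probe to 1 gene of a cluster is uncertain. On the deposited values of the authors, 9 of the 14 called differences were over 1.5 times smaller, as for Pcdh10 (-0.66), Pcdhb14 (-1.10) and Cdh2 (0.40).

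**Figure D4:**
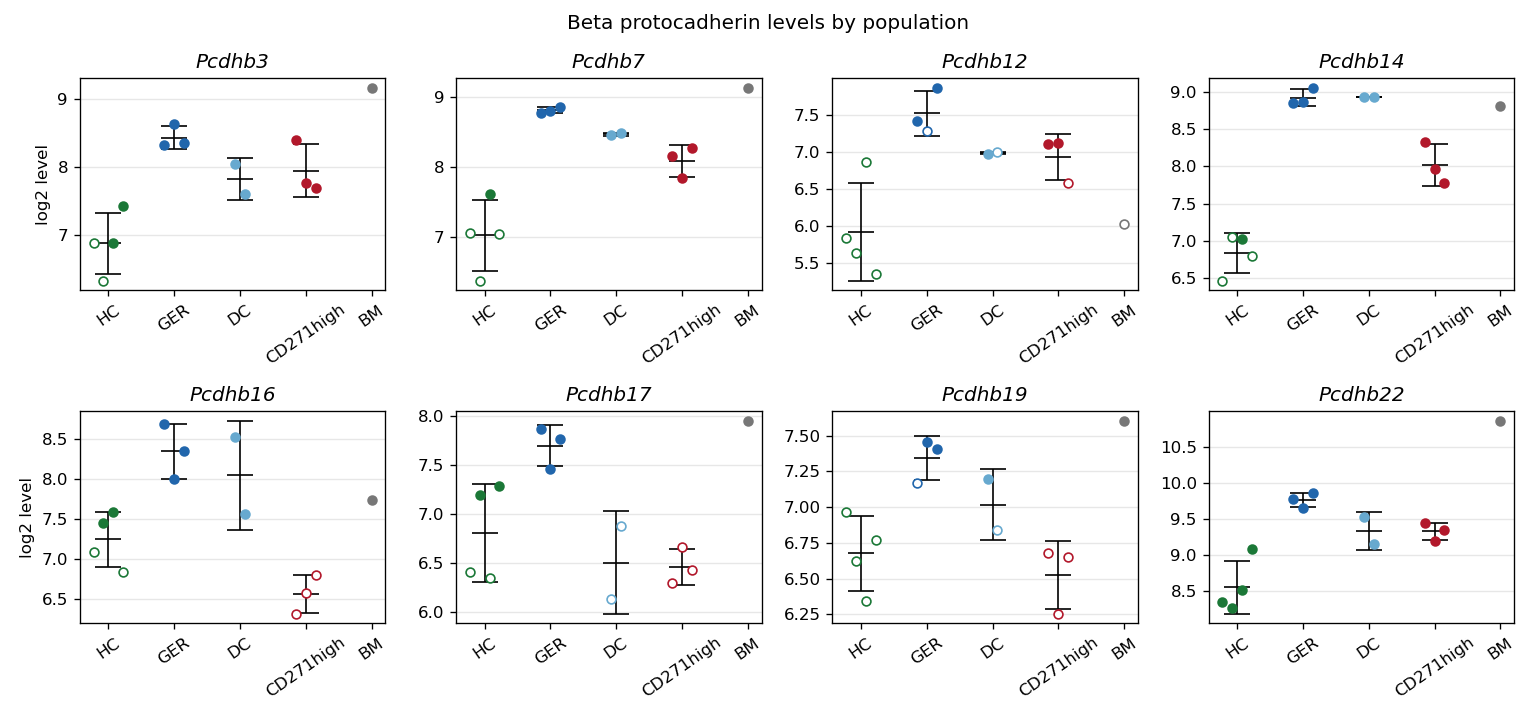
Log2 levels of the 8 detected beta protocadherins by population. Each point is 1 array, filled where the detection p was under 0.01, and the bars give the mean ± SD of populations with 2 or more arrays. HC is the lowest population for Pcdhb3, Pcdhb7, Pcdhb14 and Pcdhb22, whereas CD271high is the lowest for Pcdhb16.

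GER and DC, the 2 CD326-positive epithelial populations, were compared to ask how the gates for low and high CD146 differ. None of the 20 genes passed: limma called 0 of 20 members, against 4.16% of all genes, while 4 of 20 had an unadjusted p under 0.05 against 13.7% of all genes. The largest differences were in Cdh4, with GER above DC on every array (1.44 ± 0.46, adjusted p = 0.14), Pcdh20 (-1.24) and Pcdhb17, detected on 3 of 3 GER arrays and 0 of 2 DC arrays (adjusted p = 0.06). Pcdhb17 was at 7.87, 7.46 and 7.77 in GER and at 6.13 and 6.87 in DC. On the authors' deposited normalized values Cdh4 passed (1.32, adjusted p = 0.016). Pcdhb17 passed without HC C (adjusted p = 0.046) and without HC D (adjusted p = 0.039).

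CD271high was compared with the mean of HC, GER and DC to ask which adhesion genes differ in the cells of the high-CD271 gate, in which Ngfr itself was lower. Cdh3 and Cdh6 were higher, and 7 genes were lower: Cdh2, Cdh4, Pcdh7, Pcdh17, Pcdha6, Pcdhb16 and Pcdhb19. Cdh6 passed the detection filter only through CD271high and BM. Cdh2, Pcdha6, Pcdhb16 and Pcdhb19 passed it only with the help of HC, GER and DC arrays. The counts given here are therefore descriptions. Of all genes 43.6% passed, 19.4% higher and 24.2% lower, against 9 of the 20. The median log2 difference was -0.37 over the 20 genes and -0.08 over all genes. All CD271high arrays lay above the other 9 for 2 genes (Cdh3 and Cdh6) and below them for 4, against 12.7% and 10.2% of all genes. Taken in pairs, the populations differed in 14 of the 20 genes between HC and GER (42.6% of all genes), 9 between HC and DC (35.9%), 13 between HC and CD271high (55%), 11 between GER and CD271high (30.6%) and 7 between DC and CD271high (25%). Cdh3 was 2.28-fold higher (1.19 ± 0.16, adjusted p = 9.2e-05) with all 3 CD271high arrays above all others. Cdh4 was 7.46-fold lower (-2.90 ± 0.34, adjusted p = 2.7e-05), and GER exceeded CD271high by 18.6-fold (adjusted p = 1.1e-05). Pcdh17 was 4.89-fold lower (-2.29 ± 0.31, adjusted p = 7.5e-05), by -2.73 within beadchip 1 and -0.60 (adjusted p = 0.48) within beadchip 2.

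Pcdh7 was 2.57-fold lower in CD271high than in the mean of the other 3 (-1.36 ± 0.23, adjusted p = 0.00045). Several of these genes were undetected on every CD271high array, so that only bounds can be given. Pcdha6 was at least 3.30-fold lower, Pcdhb16 at least 2.08-fold, Pcdhb19 at least 1.14-fold and Cdh2 at least 1.12-fold. No p is given for them, because they passed the detection filter only with the help of HC, GER and DC arrays. Not all beta genes were low in CD271high. Pcdhb3, Pcdhb7, Pcdhb14 and Pcdhb22 were detected on all 3 of its arrays and were higher there than in HC, by 1.07 ± 0.25, 1.06 ± 0.23, 1.18 ± 0.18 and 0.77 ± 0.19 on the log2 scale (adjusted p from 0.00012 to 0.0047). Markers of several cell types moved with this population. Of the macrophage markers 10 of 10 were higher in CD271high, of the glial markers 3 of 4, of the epithelial markers 4 of 6 and of the mesenchymal markers 4 of 8. Lower were 6 of 7 Deiters and pillar cell markers, 5 of 6 markers of the greater epithelial ridge and 6 of 8 hair cell markers. Of all genes 19.4% were higher and 24.2% lower. Their part in the cadherin differences was not tested. Within beadchip 2, which holds 1 CD271high array, 3 of the 20 genes passed, near the share of all genes (15.3%). Without HC D, Pcdh10 (0.73, adjusted p = 0.0053) and Pcdh20 (-0.87, adjusted p = 0.032) passed as well. Pcdhb19 was lost without CD271high B or DC A (-0.35 and -0.43). Pcdhb17, also undetected in CD271high, passed without HC C or DC A (-0.59 and -0.66).

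**Figure D5:**
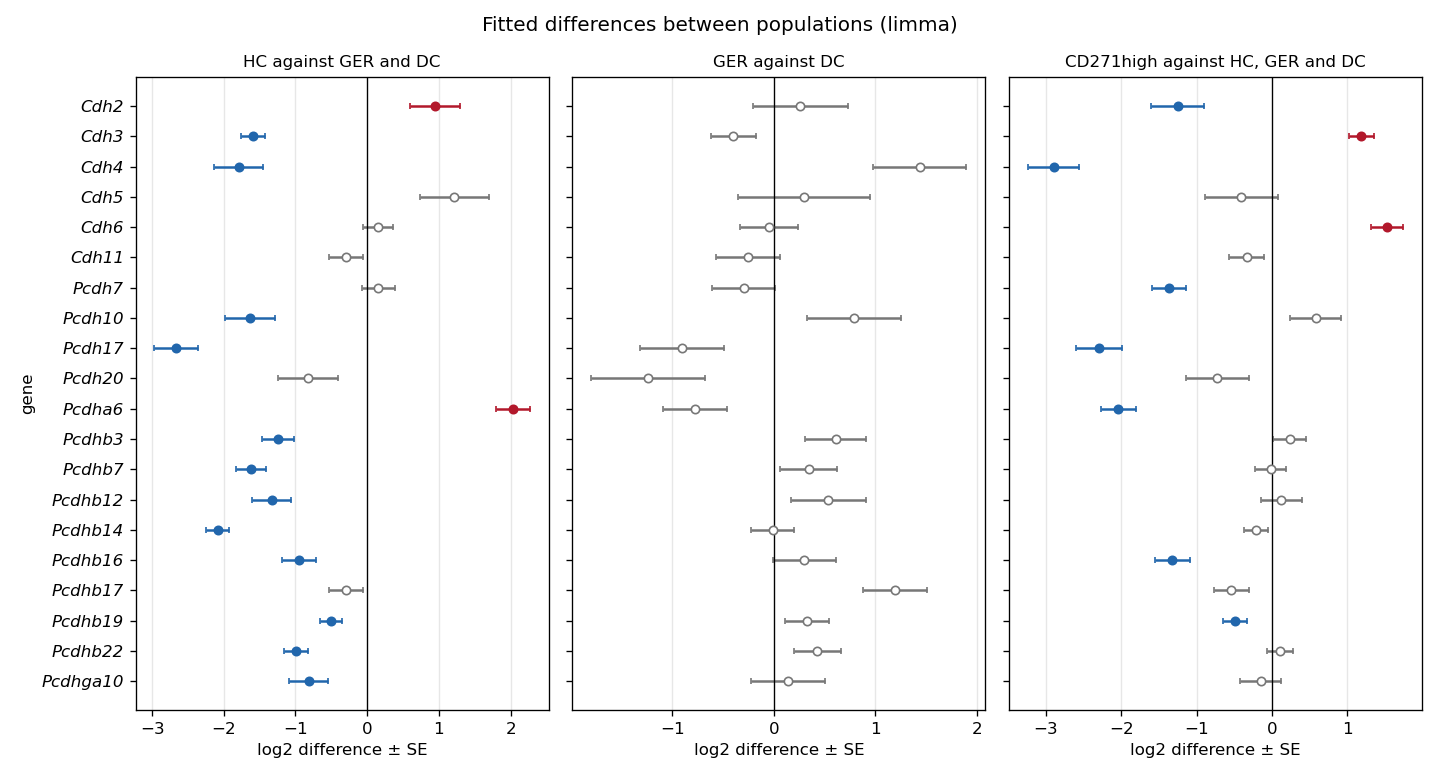
Fitted log2 differences ± SE of the 20 genes in the 3 comparisons. Red points passed as higher, blue points as lower, and open grey points did not pass. Filled points sit mostly left of 0 for HC, none are filled for GER against DC, and Cdh3 and Cdh6 are to the right of 0 for CD271high.

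BM has 1 array, so its values were set beside the range of the other 12 without a test. BM lay above that range for 9 of the 20 genes and below it for 2, against 18.8% and 15.9% of all genes. It was outside by 1 or more on the log2 scale for 1 gene above (3.26% of all genes) and 2 genes below (2.97%), together 3 genes against 6.24%. Cdh6 was above by 1.96 (9.64 against at most 7.68). Cdh3 and Cdh4 lay below the range, at distances of -2.35 and -1.01, and were not well above background. Pcdhb22 (10.86) was above by 0.997, Pcdhb3 by 0.53 and Pcdh10 by 0.39, and Pcdh17 (12.35) was above by 0.27. The epithelial markers were at their lowest in BM as well, with a summed level of 1663 and 4 of 6 detected, and their part in the low Cdh3 and Cdh4 was not tested.

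The partners of these proteins were read from lists of related genes. Among the catenins and other cadherin-associated proteins 9 were tested. Ctnnb1, which encodes beta-catenin, the link between cadherins and alpha-catenin, did not pass in HC (0.01 ± 0.14, adjusted p = 0.98), while Ctnna1, which encodes alpha-catenin, was lower (-0.69 ± 0.12, adjusted p = 0.00056). Ctnnd2, which encodes the neural delta-catenin, was 2.74-fold higher in HC (1.45 ± 0.15, adjusted p = 1e-05), and so was Ctnnal1. Nectin1 was detected on all 4 HC arrays and on no other array (at least 1.31-fold higher), while Nectin3 was lower. In all, 3 were higher, 2 lower and 4 did not pass in HC, where 19.5% of all genes were higher and 26.5% lower. In CD271high 3 were higher, 5 lower and 1 did not pass, where 19.4% of all genes were higher and 24.2% lower. Between GER and DC, Nectin3, whose product joins nectin-1 in contacts between hair cells and supporting cells, was lower in GER (-0.78 ± 0.19, adjusted p = 0.044).

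Of 7 other members of the cadherin superfamily tested, 2 were higher in HC and 3 lower (Celsr1, Clstn1 and Fat4). Of all genes 19.5% were higher and 26.5% lower. Celsr3, an atypical cadherin of axon guidance and planar polarity, was detected on all 4 HC arrays and on no other array and was at least 30.9-fold higher. Nectin1 and Celsr3 passed the detection filter only through HC, so no p is given for them. Clstn3, which encodes the synaptic calsyntenin-3, was 3.55-fold higher (1.83 ± 0.22, adjusted p = 3e-05). In CD271high 6 of the 7 were lower and 0 higher, where 24.2% of all genes were lower and 19.4% higher. Of 14 protocadherin tail partners and cluster regulators, 3 were higher and 5 lower in HC, near the shares of all genes (19.5% and 26.5%). They included components of the WAVE complex that moved apart, with Wasf1 (1.24 ± 0.15, adjusted p = 2.9e-05) and Cyfip2 (0.81 ± 0.15, adjusted p = 0.00078) higher and Cyfip1 lower (-1.01 ± 0.16, adjusted p = 0.00031). Ctcf, which encodes the looping factor of the clustered genes, did not pass (0.01 ± 0.14, adjusted p = 0.97), and Dnmt3b, a methyltransferase of their promoters, was lower (-0.89 ± 0.23, adjusted p = 0.0077).

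Among 6 cadherin-cleaving protease genes, 1 was lower in HC, where 26.5% of all genes were lower. It was Ncstn of the gamma-secretase complex (-0.70 ± 0.12, adjusted p = 0.00037). Adam17, a sheddase, was higher in CD271high (1.01 ± 0.13, adjusted p = 5.2e-05), and Psen2, which encodes a presenilin of gamma-secretase, was lower (-0.69 ± 0.15, adjusted p = 0.0033). Of 4 tested transcription factors known to repress cadherins, Zeb1 was higher in HC (1.56 ± 0.45, adjusted p = 0.014) and both Zeb1 (3.03 ± 0.45, adjusted p = 0.00017) and Zeb2 (3.45 ± 0.64, adjusted p = 0.00093) were higher in CD271high. Zeb1 had mean log2 levels of 7.98 in HC, 6.48 in GER, 6.34 in DC, 9.97 in CD271high and 11.97 in BM. CD271high was thus high for Zeb1 and for Cdh3 alike, while BM was high for Zeb1 and low for Cdh3. A relation between Zeb1 and Cdh3 was not tested. CD271high expressed markers of several cell types, so the 2 transcripts need not come from the same cells.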

How the data were processed

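RNA of 13 sorted samples was measured on Illumina BeadChip arrays. Per the file headers, the deposited non-normalized table gives a mean bead intensity and a detection p-value for each probe on each array. A second deposited table held the authors' quantile-normalized log2 values, per the file headers, and was used as an alternative. Another 26 per-sample columns were not used. The scanner software is not given in the sources used here. The lowest raw signal was 117, so the intensities were taken as not background-subtracted.

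With R 4.3.3 and limma 3.58.1, the background was corrected from the detection p-values (normexp, offset 16), arrays were quantile normalized, and log2 was taken. The detection filter (p under 0.01, 2 or more arrays) left 13192 probes, and the brightest probe stood for its gene (10088 genes). Population means were fitted over all 13 arrays with lmFit, leaving 8 residual degrees of freedom, followed by eBayes. The tests were two-sided, adjusted by Benjamini-Hochberg over all genes of a comparison, with a threshold of 0.05. Pairwise comparisons used the same fit. The scripts were tested on simulated data. The number of arrays limits the precision.

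Alternatives covered normalization, filter, probes, beadchip, replicate letters, reference population and leaving out each array. Per-array values are given in full for genes that passed with a log2 difference of 1 or more, for Cdh2, Cdh5, Cdh11 and Pcdhb22, and for BM values outside the range by 1 or more. Cdh6 is given as a range in HC, GER and DC. The other genes singled out, Pcdh1, Pcdh20, Pcdhb17, Pcdhb19 and Pcdhga10, and the partner genes were chosen after their values were seen. The members and lists were chosen with earlier results of these data known. The description of GER C gives the letter A, and the title was followed. Letters were checked for pairing: the deviations of 15 same-letter pairs correlated at -0.13 to 0.18, with 4 over 0.1, so the letters were not taken to pair samples.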

Additional observations from a re-analysis of the deposited data

Results flagged for a closer look

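Pcdh10 on HC D, with a log2 level of 7.49, lay far from the other 3 HC arrays, at 5.68 to 5.78. The gap was 0.945 of the range of the 4 arrays. This was the only array so far from its group among the 20 genes tested in HC, and chance flags about 1 group in 20. HC D was also the HC array with the highest Schwann cell and pericyte marker sums.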

How the results depend on the processing

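Over the alternatives to the 3 comparisons, 1291 values of single genes were recomputed: 1219 kept their side of the threshold, 53 lost it, 19 gained it and 0 of the called values reversed. For HC against GER and DC, the count of 14 genes became 3 within beadchip 2 and 9 against DC alone, and 12 to 14 when 1 array was left out. The count over all genes, 4641, became 3059 within beadchip 1 and 1426 within beadchip 2, where fewer arrays remain. For GER against DC, the count of 0 became 1 on the authors' deposited values (Cdh4) and 0 to 1 when 1 array was left out, and the 420 calls over all genes became 159 to 495 (242 without DC A, 159 without DC B). For CD271high, the 9 genes became 3 and the 4398 calls became 1548 within beadchip 2. No GER against DC value exists within beadchip 2. With the beadchip as a block 12 genes passed for HC, without Cdh2 and Pcdhb19. The replicate block gave 13, 1 (Pcdhb17, adjusted p = 0.039) and 11 genes and 4583, 457 and 4507 calls over all genes. Cdh2 in HC was the least stable call, passing under 9 of 23 alternatives. Median scaling moved the all-gene median in HC from -0.09 to -0.04. Dim genes are limited by the background: 5 of the 20 were detected on 2 to 4 arrays.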
